A study of Mus musculus with 5 samples.

Results

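C3, C4b, Serping1, C1ra and C1s1 encode complement proteins and their regulators that act downstream of, or beside, the recognition molecule C1q. They were chosen by symbol, 5 genes of the 32285 named in the deposited tables, and the C1q genes were kept apart. C3, Serping1, C1ra and C1s1 were listed in the tables of all 5 heart sections, among 13711 such genes, and C4b was listed in 4. The sections were Visium spatial transcriptomes, in which polyadenylated RNA is captured on a grid of barcoded spots that can each cover several cells. All came from wild-type C57BL/6 mice operated on postnatal day 1, and each was a transverse heart section 200 µm below the level of the suture. Myocardial infarction (MI) was induced by ligation of the left anterior descending coronary artery, and sham hearts were operated on without it. Day 3 after surgery was sampled with 1 sham heart and 1 infarcted heart, and day 7 with 1 sham heart and 2 infarcted hearts, called MI day 7 replicates 1 and 2. All groups but MI day 7 thus have no replicate error.

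Complement is a cascade of plasma and tissue proteins that tags debris and microbes for removal. In the classical pathway C1q binds a target and activates the proteases C1r and C1s, which cleave C4 and C2 to build an enzyme that cleaves C3. Fragments of C3 coat the target and are read by receptors of phagocytes. Serping1 encodes the C1 inhibitor, a serpin that inactivates C1r and C1s. The liver makes most of the circulating proteins, and fibroblasts, mesothelial cells and macrophages also transcribe complement genes locally.

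In GENCODE vM21 on GRCm38, Serping1 lies on the minus strand of chromosome 2 (chr2:84765387-84775444), and C4b (chr17:34728380-34743882) and C3 (chr17:57203970-57228136) on the minus strand of chromosome 17. C1ra (chr6:124512405-124523443, plus strand) and C1s1 (chr6:124530345-124542359, minus strand) are neighbours on chromosome 6, followed by their copies C1rb (chr6:124570294-124581171) and C1s2 (chr6:124624625-124636085). C4a (chr17:34809092-34823464) is the copy of C4b. The last 500 bases of the transcripts, from which tags of this kind of library mostly derive, were 98.0% identical over 499 aligned bases between C4b and C4a, and 96.8% over 441 between C1s1 and C1s2. Between C1ra and C1rb, 181 bases aligned, with 98.9% identity. Levels of these 3 genes are therefore uncertain with respect to their copies.

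RefSeq promoter windows on GRCm38.p6, running from 250 bases before to 50 after a transcription start, were available here for 3 of the 5 genes and are shown because these genes are compared by position in the sections. Letters searched for on both strands were a C/EBP-like motif (TTGCNNAA), a STAT-like motif (TTCNNNGAA), an IRF-like motif (GAAA, any 2 bases, GAAA) and a TATA box (TATAAA), and matches are in capitals. No match of one motif overlapped another. These letters occurred in 10.8%, 8.30%, 3.44% and 13.6%, respectively, of all 32851 promoter windows of the same length.
C3, chr17:57228087-57228386, minus strand: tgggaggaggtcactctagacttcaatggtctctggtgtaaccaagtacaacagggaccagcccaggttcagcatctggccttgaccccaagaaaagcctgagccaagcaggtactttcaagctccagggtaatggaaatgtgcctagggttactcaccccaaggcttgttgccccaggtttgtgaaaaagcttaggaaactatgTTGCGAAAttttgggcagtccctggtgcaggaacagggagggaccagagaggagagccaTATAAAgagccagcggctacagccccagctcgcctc
C1ra, chr6:124512371-124512670, plus strand: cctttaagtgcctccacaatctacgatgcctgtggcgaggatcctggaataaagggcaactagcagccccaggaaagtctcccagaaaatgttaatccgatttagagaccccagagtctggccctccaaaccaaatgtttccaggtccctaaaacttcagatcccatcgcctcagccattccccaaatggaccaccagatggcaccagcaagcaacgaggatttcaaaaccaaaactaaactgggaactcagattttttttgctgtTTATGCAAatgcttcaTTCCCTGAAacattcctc
C1s1, first start, chr6:124542272-124542571, minus strand: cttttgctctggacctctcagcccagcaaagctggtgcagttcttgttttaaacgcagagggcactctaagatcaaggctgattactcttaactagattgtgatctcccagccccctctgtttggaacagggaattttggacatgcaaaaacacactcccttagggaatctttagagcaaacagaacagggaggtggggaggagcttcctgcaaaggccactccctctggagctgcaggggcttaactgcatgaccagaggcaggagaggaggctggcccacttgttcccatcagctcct
C1rb, chr6:124570180-124570479, plus strand: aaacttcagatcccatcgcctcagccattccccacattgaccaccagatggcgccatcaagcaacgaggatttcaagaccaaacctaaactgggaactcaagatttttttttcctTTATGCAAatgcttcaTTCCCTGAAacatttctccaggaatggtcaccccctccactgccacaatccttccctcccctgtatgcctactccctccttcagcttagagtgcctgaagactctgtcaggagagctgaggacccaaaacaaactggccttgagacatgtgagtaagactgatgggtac
The C3 window held the C/EBP-like letters TTGCGAAA 45 to 38 bases before the start, and a TATA box past it. The C1ra window held TTATGCAA and TTCCCTGAA, C/EBP-like and STAT-like, and the same letters stood at the same spacing in the window of its copy C1rb. The window of the first C1s1 start held none of the 4 motifs, and that of the second start held a C/EBP-like match (TTAGGCAA) 242 to 235 bases before the start. A match describes letters in the window and not a site in use.

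Across the series, 3364 spots held 11396022 to 37492530 unique molecular identifiers (UMIs) per section, with medians of 20842.5 to 53940 UMIs per spot. Summed cardiomyocyte markers lay between 23648 and 29761 counts per 1000000 (CPM) in all sections, which fits the heart label. Xist was listed and Ddx3y was not in MI day 7 replicate 1, and the reverse held in the sham day 7 section, the MI day 3 section and MI day 7 replicate 2, so the day 7 replicates also differed in this. In the MI day 3 section, 10 spots did not touch the main body of spots and had a median of 534.5 raw UMIs. There were 5 such spots in MI day 7 replicate 1, 6 in replicate 2 and none in the sham sections. Levels below are CPM per spot over the genes of all tables, averaged over the spots of a section, and are compared between samples but not between genes. The number of cells of a type and the RNA per cell cannot be told apart in such values.

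After MI, Serping1 was spread over more of the spots than C3. Serping1, the C1 inhibitor, averaged 29.99 CPM after sham surgery at day 3 and 43.4 CPM at day 7, against 62.3 CPM after MI at day 3 and 54.1 and 79.7 CPM in MI day 7 replicates 1 and 2. Every MI section lay above both sham sections. It was listed above 0 in 40.3% of spots of the raw sham day 3 table and in 56.2% to 89.0% of spots of the corrected tables, and the 5% of spots with the highest values held 19.7% to 32.4% of its total.

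C3, the protein on which all complement pathways converge, averaged 16.9 CPM after sham surgery at day 3 and 0.819 CPM at day 7. After MI it averaged 54.1 CPM at day 3, and 7.15 and 88.8 CPM in the day 7 replicates. The groups overlapped, since MI day 7 replicate 1 lay below the sham day 3 section. After MI, the top 5% of spots held 56.5% of C3 at day 3, and 85.2% and 82.7% in the day 7 replicates. The same share was not compared in the sham sections, where C3 was listed in 32 and 12 spots. In the sham day 3 section, the only table of raw counts, C3 had 71 UMIs in all (exact Poisson 95% interval 55.5 to 89.6, counting error only), and 31 of them were in 1 spot at 6767 CPM. The highest single spots of the other sections were at 263 CPM after sham surgery at day 7, 1985 CPM after MI at day 3, and 1586 and 4050 CPM in MI day 7 replicates 1 and 2.

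C1s1, C1ra and C4b were sparse. C1s1, which encodes the protease C1s, averaged 3.78 CPM at day 3 and 6.55 CPM at day 7 in sham hearts. It averaged 9.37 CPM after MI at day 3, and at 6.55 and 22.1 CPM in the day 7 replicates. MI day 7 replicate 1 and the sham day 7 section were thus nearly equal, and replicate 2 was apart from all others. C1ra, which encodes C1r, averaged 1.10 and 1.69 CPM after sham surgery, against 6.32 CPM after MI at day 3 and 2.93 and 6.93 CPM after MI at day 7, so the groups did not overlap. C4b, the classical pathway substrate, averaged 0.660 CPM (7 UMIs) after sham surgery at day 3 and was not listed in the sham day 7 table, which holds only genes found in at least 5 spots. It averaged 4.57 CPM after MI at day 3, and 0.653 and 9.19 CPM in the day 7 replicates, the first of which did not exceed the sham day 3 value.

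**Figure D1:**
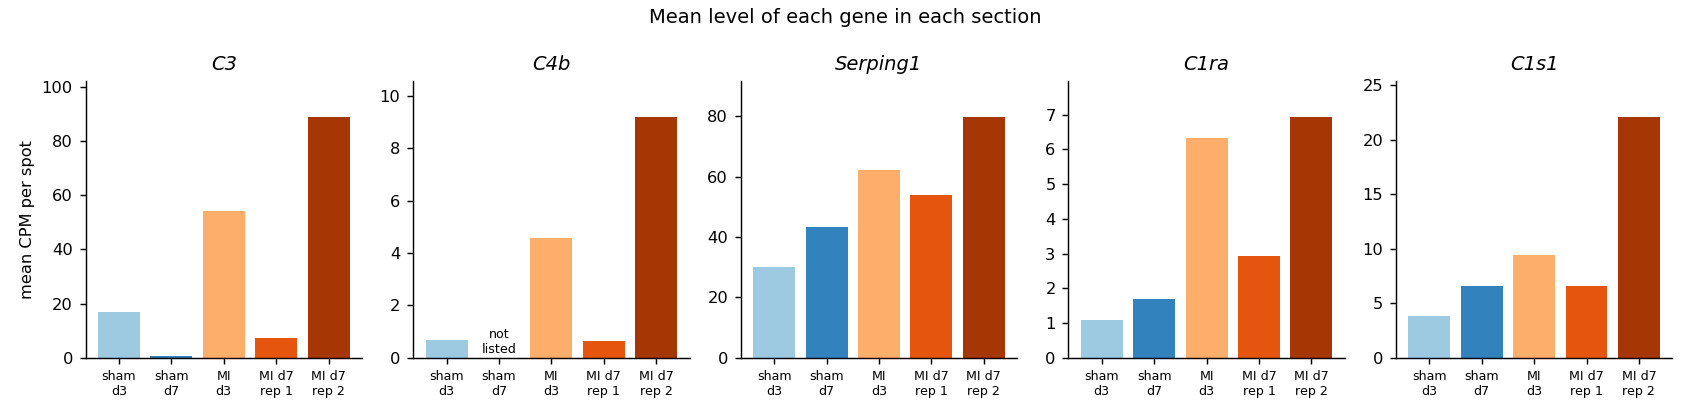
Mean level of each of the 5 complement genes (bars, CPM per spot, linear axis from 0) in the 5 sections, with sham in blue and MI in orange and no error bars, since each bar is 1 section. Every MI section lies above both sham sections for Serping1 and C1ra, and MI day 7 replicate 1 lies below the sham day 3 section for C3.

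Infarcted and sham sections were compared across days to ask whether complement transcripts differed after injury in the regenerative heart. With day as a covariate (limma on log2(CPM + 1), 2 residual degrees of freedom), 0 of the 4 genes tested were called at an adjusted p of 0.05, where 0.00773% of 12933 genes were called higher and none lower. Without adjustment, 1048 genes (8.1%) had a p under 0.05, of which 692 were higher (5.35%). The log2 difference was 0.78 for Serping1 (SE 0.19, limma adjusted p = 0.412), 1.37 for C1ra (SE 0.33, limma adjusted p = 0.412) and 2.92 for C3 (SE 0.97, limma adjusted p = 0.511). C1s1 differed by 0.94 (SE 0.43, limma adjusted p = 0.655), and C4b, fitted over genes of any table with an absent gene entered at 0, by 1.91 (SE 0.71, limma adjusted p = 0.586). All 5 estimates were positive, beside a median of -0.01 over all genes. For Serping1 and C1ra every MI section lay above both sham sections, and so it did for C1s1 by a margin smaller than its rounding, beside 6.84% of all genes. Without MI day 7 replicate 1, Serping1 (0.95, limma adjusted p = 0.0327), C1ra (1.68, limma adjusted p = 0.0372) and C1s1 (1.36, limma adjusted p = 0.0476) passed the threshold, in a fit that called 81 of all genes higher and 6 lower. Leaving out a section of a day with 1 sham and 1 MI section, or the sham section of day 7, leaves only the difference of the other day, against a single sham section. Such fits passed the threshold for C3 at day 7 without the sham day 3 or MI day 3 section (3.89 in both, limma adjusted p = 0.0422 and 0.0124), and for C1ra at day 3 without the sham day 7 section (1.80, limma adjusted p = 0.0111), whose spread comes only from the MI day 7 pair. Over all genes they called 24 higher and 5 lower, 26 higher and 8 lower, and 319 higher and 47 lower, respectively. The sections are single hearts, and the p-values measure only the spread between these sections.

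Other cell types differed between the same sections. Macrophage markers, 8 of 8 listed, summed to 87.7 and 97.6 CPM after sham surgery and to 862, 144 and 218 CPM after MI. Fibroblast markers (8 of 8) were at 3906 and 4286 CPM against 5371, 5180 and 6864. The mean FB score went the other way, at 19.1% and 24.6% after sham surgery and 7.12%, 11.7% and 11.3% after MI. Epicardial markers (3 of 5 listed in all tables) were at 19.2 and 13.2 CPM against 34.5, 18.3 and 27.7. Neutrophil markers (3 of 5) were at 26.0 and 10.4 CPM against 83.6, 8.65 and 34.3, and hepatocyte markers, of which 1 of 5 was listed, were at 0.362 to 1.04 CPM. The part of these cell types in the complement values was not tested. Per 1000 CPM of fibroblast markers, Serping1 was at 7.68 and 10.1 CPM after sham surgery and at 11.6, 10.4 and 11.6 CPM after MI. On the same scale C3 was at 4.32 and 0.191 CPM against 10.1, 1.38 and 12.9 CPM, C1ra at 0.282 and 0.395 CPM against 1.18, 0.565 and 1.01 CPM, and C1s1 at 0.968 and 1.53 CPM against 1.74, 1.27 and 3.21 CPM. On this scale the groups overlapped for C3 and C1s1, and for Serping1 MI day 7 replicate 1 was close to the sham day 7 section. Per CPM of epicardial markers, Serping1 was at 1.57 and 3.30 CPM after sham surgery and at 1.80, 2.95 and 2.88 CPM after MI, so the groups overlapped there. They also overlapped for C3, at 0.882 and 0.0622 CPM against 1.57, 0.390 and 3.21 CPM. The same held for C1s1, at 0.197 and 0.497 CPM against 0.271, 0.357 and 0.796 CPM. For C1ra the groups did not overlap, at 0.0574 and 0.129 CPM against 0.183, 0.160 and 0.250 CPM.

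At day 7, C3 was the only one of the 4 genes past the threshold, with a log2(CPM + 1) difference of 3.89 (SE 0.75, limma adjusted p = 0.0358). Its sham value is that of 1 section, in which C3 summed to 18 in 12 spots, so the size of the difference is uncertain. Of all genes tested, 24 (0.186%) were called higher and 6 (0.0464%) lower. This call rested on the spread of a pair of sections and on the processing. It was lost when genes of any table were fitted (adjusted p = 0.433 in limma), when scaled by median of ratios (limma adjusted p = 0.794), when mitochondrial and haemoglobin genes were taken out (limma adjusted p = 0.878), with a pseudocount of 5 (2.54, limma adjusted p = 0.143), and without the spots apart from the main body (limma adjusted p = 0.235). The difference was 5.63 with replicate 2 alone and 2.16 with replicate 1 alone, with no test. C1ra (1.05, SE 0.34, limma adjusted p = 0.506), C1s1 (0.81, SE 0.40, limma adjusted p = 1.00) and Serping1 (0.59, SE 0.25, limma adjusted p = 1.00) were not called. C1s1 differed by 0.00 with replicate 1 alone.

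At day 3, with 1 section per group and no test, the MI section exceeded the sham section by 1.80 for C1ra, 1.75 for C4b, 1.62 for C3, 1.12 for C1s1 and 1.03 for Serping1 (log2 ratios of CPM + 1). All 4 genes listed in all tables were higher by at least 2-fold, beside 3.51% of all genes, and 1 of them was with a pseudocount of 5. The C3 ratio was held down by a few spots of the sham heart: without spots whose leading score was epicardial it was 2.93, and within the interior of the sections it was 2.94. The MI effect at day 3 minus that at day 7 was not called for any of the 4 genes (0.363% of genes were called higher and 0.0619% lower). It was -2.27 for C3 (SE 1.14, limma adjusted p = 0.979) and between 0.31 and 0.75 for Serping1, C1ra and C1s1. With genes kept only at 10 CPM or more, the C3 difference passed the threshold (limma adjusted p = 4.76e-08). That p rests on the spread between the MI day 7 replicates alone, as the other 3 groups are single sections, and the difference was -4.00 with replicate 2 alone and -0.54 with replicate 1 alone.

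The deposited scores gave each spot an estimated share of 11 cell types, and a spot was assigned to the type with its highest score. The scores were made from the same expression values, so they are not independent of the genes that define a type. Fibroblast (FB)-dominant spots were compared with spots dominated by CM1, the most frequent cardiomyocyte state, in a fit blocked by section. There were 122, 266, 22, 94 and 94 FB-dominant spots, in the order sham day 3, sham day 7, MI day 3, and MI day 7 replicates 1 and 2, and 244, 383, 211, 342 and 491 CM1-dominant spots.

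Serping1, C1s1 and C1ra were higher in FB-dominant spots in all 5 sections, 3 of 4 genes tested, where 23.5% of 13405 genes were called higher and 3.42% lower. Serping1 was at 49.4, 72.1, 129, 113 and 173 CPM in FB-dominant spots, in the same order of sections, against 20.3, 29.2, 39.1, 37.0 and 45.9 CPM in CM1-dominant spots. The lowest FB-dominant value was above the highest CM1-dominant one, and the log2 difference was 1.54 (SE 0.10, limma adjusted p = 9.79e-08). C1s1 was at 8.58, 14.4, 9.12, 15.8 and 32.6 CPM against 2.02, 2.84, 5.93, 3.46 and 6.06 CPM (difference 1.68, SE 0.22, limma adjusted p = 5.89e-05). Its smallest gap was in the MI day 3 section. C1ra was at 1.73 to 11.1 CPM against 0.515 to 3.27 CPM (difference 1.17, SE 0.21, limma adjusted p = 0.000796). These calls remained when each section was left out, under both other scalings and with a pseudocount of 5. The split of all calls did depend on scaling, with 1446 higher and 1514 lower under median-of-ratios scaling, where the median of all genes was -0.02 rather than 0.18.

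C3 was not called in this comparison (0.65, SE 0.33, limma adjusted p = 0.158). It was at 2.79, 0.670, 23.5, 5.24 and 121 CPM in FB-dominant spots against 2.20, 0.551, 32.1, 3.36 and 16.1 CPM in CM1-dominant spots, the MI day 3 section being the exception in direction. It passed the threshold without that section (0.92, limma adjusted p = 0.00933), and when only spots with a leading score of at least 0.5 were used (1.01, limma adjusted p = 0.00203). C4b, fitted over genes of any table, was higher in 3 of 5 sections (0.86, SE 0.36, limma adjusted p = 0.0875).

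**Figure D2:**
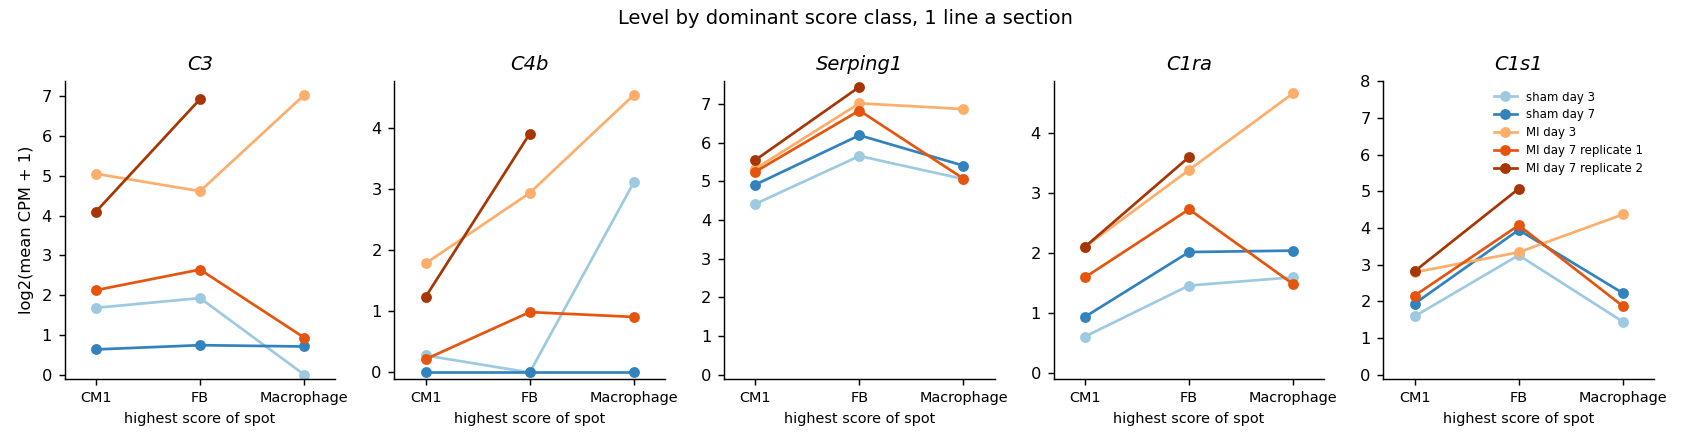
Level of each gene (log2 of mean CPM + 1) in CM1-dominant, FB-dominant and Macrophage-dominant spots, 1 line per section, without classes of fewer than 20 spots. Serping1 lies higher in FB-dominant than in CM1-dominant spots in all 5 sections, and Macrophage-dominant spots of the MI day 3 section are the highest of their class for all 5 genes among the 4 sections shown.

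Macrophage-dominant spots numbered 26, 70, 20 and 21 in the first 4 sections, and 13 in MI day 7 replicate 2, which was left out of the test. None of the 4 genes was called against CM1-dominant spots (0.0682% of genes called higher, 0 lower; at an unadjusted p under 0.05, 10.2% of 13201 genes). Estimates were 1.14 for C1ra (limma adjusted p = 0.452), 0.63 for Serping1 (limma adjusted p = 0.426), 0.36 for C1s1 (limma adjusted p = 0.754) and -0.20 for C3 (limma adjusted p = 0.907). C4b, fitted over genes of any table, was not called either (1.57, SE 0.54, limma adjusted p = 0.401). The C3 estimate turned positive with a pseudocount of 5 and without the sham day 3 section or MI day 7 replicate 1. The 20 Macrophage-dominant spots of the MI day 3 section stood out, with C3 at 129.6 CPM, Serping1 at 116 CPM, C1ra at 24.2 CPM, C4b at 22.3 CPM and C1s1 at 19.6 CPM. In the 13 spots of MI day 7 replicate 2, C3 was at 754 CPM, whereas in the 21 of replicate 1 it was at 0.905 CPM.

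Across the spots of a section, Serping1 followed the FB score and the others did so weakly. Spearman's correlation of Serping1 with the FB score was 0.28 and 0.30 in the sham sections of days 3 and 7, 0.40 after MI at day 3, and 0.49 and 0.42 in the MI day 7 replicates. It exceeded the correlation of 98.2% to 99.6% of genes in each section. Mean Serping1 was higher in each step of the score in all sections but sham day 3. In MI day 7 replicate 1 it was at 37.1 CPM in spots with an FB score up to 0.05. It was at 66.8, 86.9 and 127 CPM there in spots of 0.05 to 0.2, 0.2 to 0.5 and over 0.5. In the sham day 3 section the same steps were at 18.0, 42.0, 40.4 and 54.3 CPM. With the Macrophage score, the correlation of Serping1 was 0.10, 0.08, 0.29, 0.20 and 0.36 in the same order of sections, lower than with the FB score in each.

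For C3, the correlation with the FB score was 0.01 to 0.19 and with the Macrophage score 0.04 to 0.22, and in both the highest value was that of MI day 7 replicate 2. With the Macrophage score, C4b and C1ra were at their highest in MI sections, 0.28 and 0.30 for C4b after MI at day 3 and in MI day 7 replicate 2, and 0.30 for C1ra after MI at day 3. C1s1 had 0.22 and 0.25 with the FB score in the day 7 replicates, and -0.01 after MI at day 3. Spots of a section share a library and differ in depth, the scores sum to 1, and most spots list the sparse genes at 0, so these values are descriptions. A summary was the median over sections of the median correlation of the genes listed in all tables, thus without C4b. With the spot's raw UMI total held constant, it moved from 0.129 to 0.128 for the FB score and from 0.0589 to 0.0572 for the Macrophage score.

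**Figure D3:**
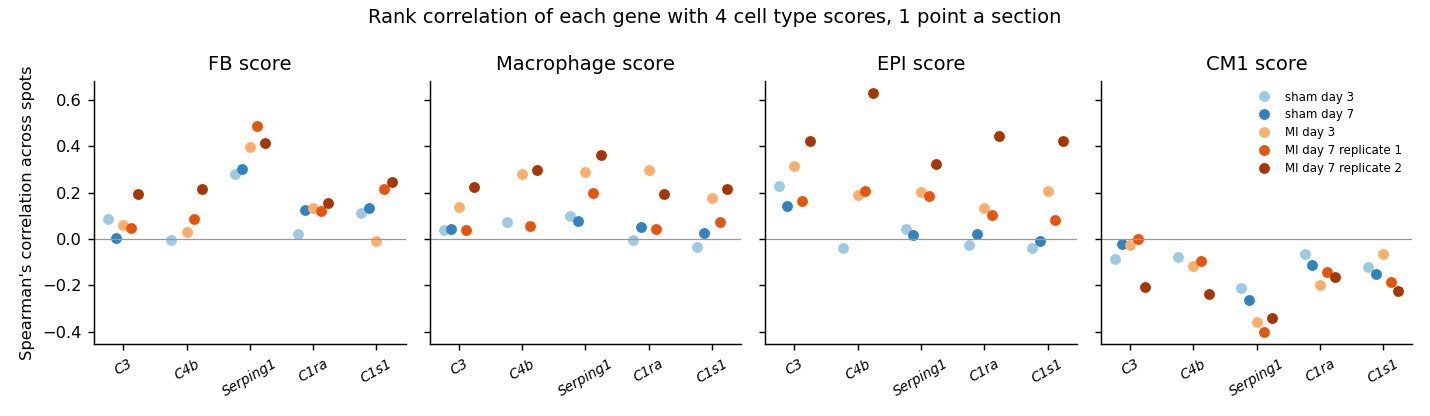
Spearman's correlation across spots between each complement gene and the FB, Macrophage, EPI and CM1 scores (4 panels), 1 point per section. Serping1 has its highest values with the FB score, 0.28 to 0.49, and C3 with the EPI score, 0.14 to 0.42.

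The genes most like Serping1 across spots, by mean Spearman correlation over 5 sections among 5843 genes with a mean of at least 20 CPM, were Col3a1 (0.41), Col1a1 (0.39), Col1a2 (0.38), Igfbp7 (0.34) and Sparc (0.34), which encode fibrillar collagen chains and secreted matrix-associated proteins. The same 3 collagen genes led for C3, with lower values, Col1a1 (0.18), Col1a2 (0.17) and Col3a1 (0.16). Col3a1 (0.16) led for C1ra and Mgp (0.19) for C1s1. Trf (0.20) and C3 (0.20) led for C4b over 4 sections. C4b, C1ra and C1s1 lie below 20 CPM and could not be listed as nearest genes themselves. Among the 5 genes themselves, the correlation of C3 with C4b was 0.28 after MI at day 3, 0.18 and 0.36 in the day 7 replicates, and -0.02 in the sham day 3 section. C1ra and C1s1, whose proteins act as a complex, had a correlation of 0.05 to 0.24.

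C3 was higher at the rim of the sections than inside them. A spot with fewer than 6 neighbouring spots was called an edge spot, which includes the rims of cavities, and edge and interior spots were compared in a fit blocked by section. C3 was at 96.4, 3.24, 163, 37.9 and 316 CPM in edge spots, in the order sham day 3, sham day 7, MI day 3, and MI day 7 replicates 1 and 2. In the interior it was at 1.96, 0.466, 21.7, 1.84 and 29.9 CPM. Edge spots were above interior spots in all 5 sections, and the log2 difference was 3.31 (SE 0.27, limma adjusted p = 1.55e-07). The edge values of the sham sections rested largely on 1 spot each. In the sham day 3 section, the edge spot at 6767 CPM held 31 of the 52 C3 UMIs of the edge. In the sham day 7 section, C3 summed to 9 in edge spots, of which 1 spot held 6. Edge spots made up 12.7% to 22.9% of the spots and held 50.3% to 90.2% of the C3 total.

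Of the 4 genes tested, 3 were called higher at the edge, where 0.736% of 13308 genes were called higher and 4.05% lower. C1s1 was at 8.15, 5.83, 17.9, 11.2 and 64.4 CPM at the edge against 2.96, 6.65, 6.83, 5.75 and 11.1 CPM inside (difference 1.12, SE 0.22, limma adjusted p = 0.00625). The sham day 7 section was the exception in direction. Serping1 was at 44.3, 45.7, 73.0, 68.5 and 139 CPM against 27.3, 43.1, 59.1, 51.6 and 64.4 CPM (0.51, SE 0.10, limma adjusted p = 0.00485), a smaller difference shown by all 5 sections. C1ra was not called (0.40, SE 0.27, limma adjusted p = 0.346). C4b, fitted over genes of any table, of which 0.75% were called higher, passed the threshold with 1.29 (SE 0.32, limma adjusted p = 0.0305) and was higher at the edge in the 3 MI sections, while the sham day 3 section had 1 C4b UMI at the edge and 6 inside (0.689 against 0.654 CPM). Its call was lost without any one of the MI sections, with 0.92 to 1.16 and limma adjusted p from 0.0648 to 0.141. All 3 calls remained without the spots apart from the main body, which count as edge spots. The call of C3 did not depend on scaling, although the median over all genes moved from -0.13 to 0.00 with median-of-ratios scaling and the split of all calls from 98 higher and 539 lower to 175 and 51.

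Among CM1-dominant spots alone, C3 was still called higher at the edge with a smaller difference (1.23, limma adjusted p = 0.0156), whereas Serping1 (0.28, limma adjusted p = 0.150) and C1s1 (0.30, limma adjusted p = 0.502) did not. Moving inward by rings, C3 in MI day 7 replicate 2 was at 316 CPM in edge spots and at 73.2, 22.9 and 12.4 CPM 1 ring, 2 rings and at least 3 rings inside. In MI day 7 replicate 1 it was at 37.9, 3.83, 3.90 and 1.05 CPM, and in the MI day 3 section at 163, 26.1, 14.9 and 22.2 CPM. The step from the edge to the next ring was the largest in each of these 3 sections. In MI day 7 replicate 2 the outer rim (118 spots) was at 397 CPM and the rims of inner gaps (45 spots) at 103 CPM.

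**Figure D4:**
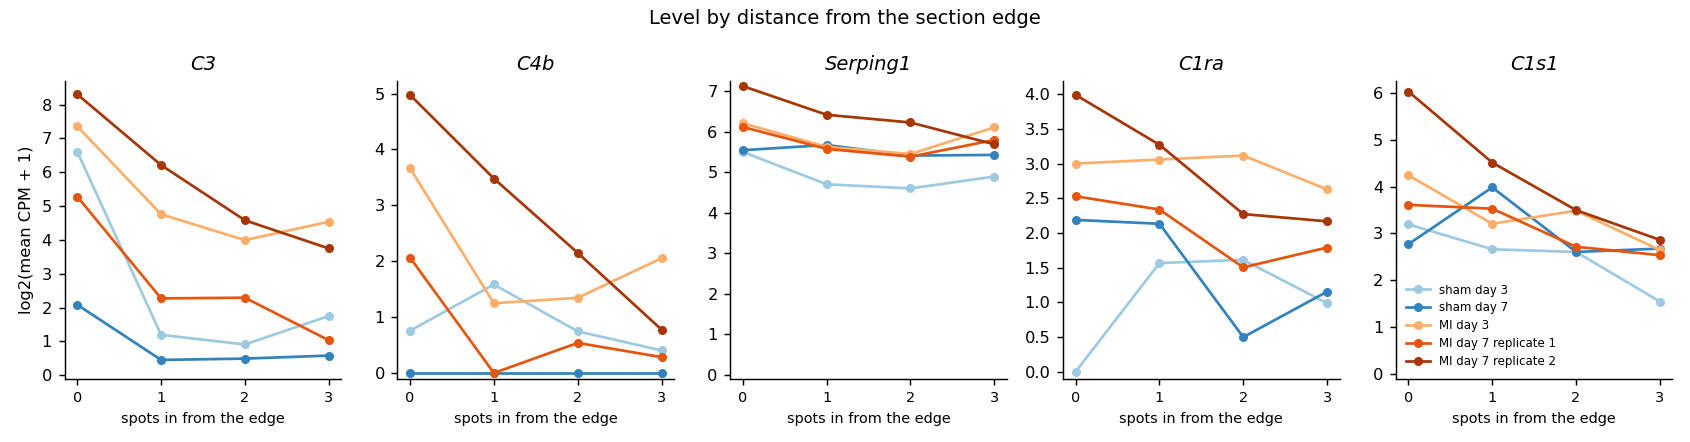
Level of each gene (log2 of mean CPM + 1) in edge spots (0) and in spots 1, 2 and at least 3 rings inward, 1 line per section. C3 is highest in edge spots in all 5 sections, and the Serping1 lines are flatter.

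Much of the C3 total was in spots whose leading score was that of the epicardium (EPI), the mesothelial layer that covers the heart. There were 2, 0, 8, 6 and 15 such spots in the same order of sections, and every one of them had C3 above 0, at a mean of 3501 CPM in the sham day 3 section, 823 after MI at day 3, and 472 and 2440 in the MI day 7 replicates. They held 76.2%, 32.4%, 57.2% and 52.1% of the C3 total of these sections. In the sham day 3 section, the mean and the share came mostly from 1 of the 2 spots, that at 6767 CPM. In MI sections EPI-dominant spots also held 22.5% to 63.3% of C4b and 6.69% to 41.7% of C1s1, against 3.86% to 16.0% of Serping1. The label of these spots matched its markers, since summed epicardial markers in them were at 258 to 970 CPM, against 12.9 to 28.2 CPM in FB-dominant spots of the same sections. Markers of other cells were also high in them. Fibroblast markers summed to 17699, 10038, 14192 and 29579 CPM in the EPI-dominant spots of the 4 sections, above the FB-dominant spots in all but the MI day 3 section. Macrophage markers summed to 176, 491, 722 and 1998 CPM, above FB-dominant spots in the same 3 sections. Epicardial cells, fibroblasts and macrophages cannot be told apart as sources of the complement values of these spots. The scores use the same expression values, so no test was made of this comparison. The correlation of C3 with the EPI score was 0.23, 0.14, 0.31, 0.17 and 0.42, and that of C4b was 0.63 in MI day 7 replicate 2.

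Without EPI-dominant spots the edge difference of C3 was smaller, 2.06 against 3.31 on the log2 scale, and still called (limma adjusted p = 3.33e-10). Those of C1s1 (0.63, limma adjusted p = 0.0293) and Serping1 (0.24, limma adjusted p = 0.0431) were smaller too and still called, and C4b was not called (0.52, limma adjusted p = 0.158). Of the 5 epicardial markers, 4 were called higher at the edge too, Msln (2.79, limma adjusted p = 7.75e-07), which encodes mesothelin, Krt19 (0.81, limma adjusted p = 0.0455) and, over genes of any table, Upk3b (2.75, limma adjusted p = 0.000389) and Upk1b (1.56, limma adjusted p = 0.00700). Wt1 was not called (0.13, limma adjusted p = 0.620). Fibroblast markers were summed to 4389, 4553, 6116, 5635 and 9989 CPM at the edge and to 3815, 4247, 5150, 5102 and 6052 CPM inside. Their genes did not move together. Col1a1 (0.52), Col1a2 (0.43) and Col3a1 (0.36) were called higher at the edge and Gsn (-0.42) lower, while Lum, Dcn, Tcf21 and Pdgfra were not called. Macrophage markers summed to 75.3, 105, 1286, 176 and 446 CPM at the edge against 90.0, 96.6, 736, 139 and 159 CPM inside. The part of these cells in the edge values was not tested.

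**Figure D5:**
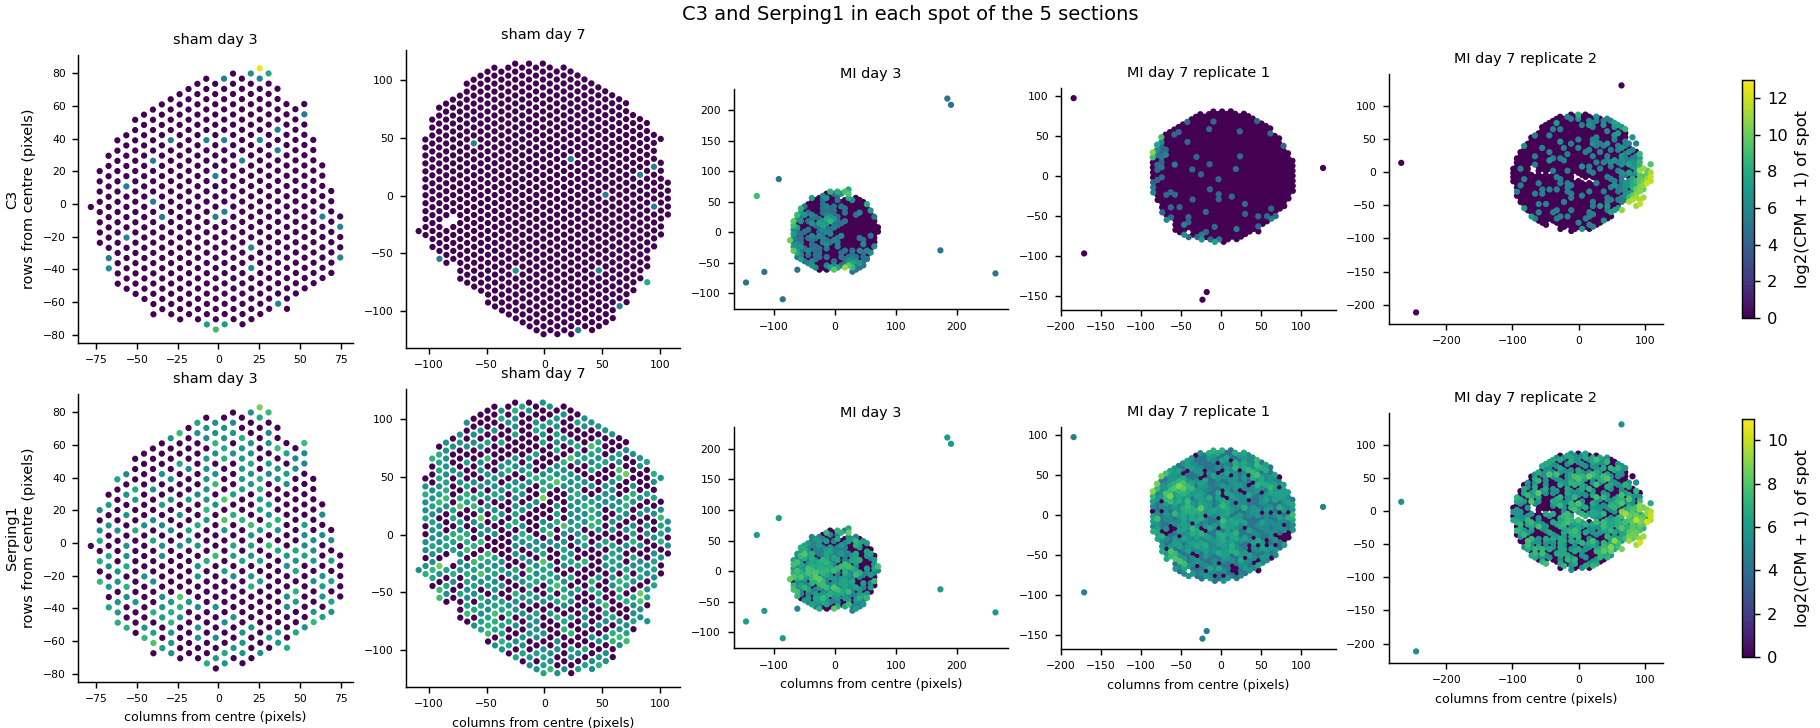
Maps of the 5 sections with each spot coloured by log2(CPM + 1) of C3 (upper row) or Serping1 (lower row), on axes of pixels from the centre of the section. High C3 values lie along the rims, in few spots of the sham sections, while Serping1 is spread over each section.

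The neighbourhood of high spots was measured with Moran's I, which is 0 for no spatial clustering. C3 was at 0.32 after MI at day 3 and at 0.20 and 0.33 in the MI day 7 replicates, against 0.11 and -0.01 in the sham sections of days 3 and 7. Serping1 was at 0.18, 0.14 and 0.16 in the MI sections and at 0.06 in both sham sections. C4b reached 0.32 and C1s1 0.23 in MI day 7 replicate 2, and C1ra 0.18. Medians over all genes were 0.0045 and 0.0072 in the sham sections and 0.013 to 0.028 in the MI sections, so genes in general clustered more in the latter. Ranked within a section, Serping1 was above 94.6% and 95.9% of genes in the sham sections and above 93.2% to 96.6% in the MI sections. C3 was above 98.5% in the sham day 3 section, 23.5% in the sham day 7 section, and 96.9% to 99.0% in the MI sections. The 10 spots apart from the main body of the MI day 3 section all listed C3, at 28.3 to 485 CPM, and Serping1, and none listed C4b, C1ra or C1s1. With so few raw UMIs, a corrected value above 0 there need not be a molecule, and these spots held 3.75% of the C3 of that section.

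MI and sham sections were then compared within 1 class of spots, which removes differences in the number of spots per class but not in the make-up of a spot. Among CM1-dominant spots C3 was higher after MI, with a log2 difference of 2.86 (SE 0.40, limma adjusted p = 0.00531), where 0.188% of 12748 genes were called higher and 0.0628% lower. C3 was at 2.20 and 0.551 CPM in these spots of the sham sections and at 32.1, 3.36 and 16.1 CPM in the MI sections, without overlap. In the same spots, macrophage markers summed to 55.4 and 62.6 CPM after sham surgery and 246, 108 and 79.8 CPM after MI, and fibroblast markers to 2577 and 2848 against 3377, 3498 and 3981 CPM. Of 4 epicardial markers tested, counting Upk3b over genes of any table, Msln was called higher (2.15, limma adjusted p = 0.0134). The part of these cells was not tested. The call was lost when scaled by median of ratios (limma adjusted p = 0.105) and without mitochondrial and haemoglobin genes (limma adjusted p = 0.0907), while the difference stayed at 2.88 and 3.06. Serping1 (0.67, limma adjusted p = 0.147), C1ra (1.16, limma adjusted p = 0.0974) and C1s1 (0.83, limma adjusted p = 0.277) were not called.

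Among FB-dominant spots Serping1 was higher after MI by 1.12 (SE 0.21, limma adjusted p = 0.0375), the only one of the 4 genes called there, where 0.588% of 13266 genes were called higher and 0.00754% lower. Its 49.4 and 72.1 CPM in the sham sections lay below the 129, 113 and 173 CPM of the MI sections. That call was narrow: it was lost in the fit over genes of any table (limma adjusted p = 0.0613), with a pseudocount of 5 (limma adjusted p = 0.0559), with scores of at least 0.5 (limma adjusted p = 0.114), and when leaving out the sham day 3 section (0.95, limma adjusted p = 0.398), the MI day 3 section (0.95, limma adjusted p = 0.402) or MI day 7 replicate 2 (1.00, limma adjusted p = 0.278). C3 differed by 3.46 (limma adjusted p = 0.126), and passed the threshold without MI day 7 replicate 1 (4.44, limma adjusted p = 0.000109). In FB-dominant spots, summed macrophage markers were at 101 and 118 CPM in sham sections and at 1461, 203 and 421 CPM in MI sections, and fibroblast markers at 6078 and 6925 against 10525, 11200 and 17455 CPM. Their part was not tested. No difference of the MI effect between FB- and CM1-dominant spots was called for any of the 4 genes (0.843% of genes called higher, 0.0746% lower), with differences of 0.60 for C3, 0.46 for Serping1, 0.32 for C1ra and -0.44 for C1s1.

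The other genes of the complement system were described beside these, as 45 genes grouped by role. Between MI and sham across days, 22 of them were tested, 0 were called, and 19 were higher, with a median of 0.98 beside -0.01 over all genes. In FB- against CM1-dominant spots 13 of 26 were called higher, none lower, beside 23.5% higher over all genes. Recognition and protease genes among these were C1qa (1.53), C1qb (1.62), C1qc (1.39), Masp1 (0.62), Fcna (0.76) and Colec12 (1.00). C2 (0.93) and Cfp (0.67) serve activation, and C3ar1 (1.34) is the receptor of a C3 fragment. Regulators among them were Clu (1.94), Cd55 (1.23) and Cfi.

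In Macrophage- against CM1-dominant spots, 3 of 25 were called higher, beside 0.0682% of all genes, C1qa (2.42), C1qb (2.31) and C1qc (2.27), the chains of the recognition molecule that macrophages are known to make. Among FB-dominant spots, 6 of 25 were called higher after MI, beside 0.588% of all genes, among them Clu (2.87), C3ar1 (2.48), C1qb (2.13), C1qa (2.02) and C1qc (1.83). At the edge, 3 of 27 were called higher, beside 0.736% of all genes, C2 (1.23, limma adjusted p = 0.00463), Itgb2 (0.74) and Colec12 (0.53). No gene of the terminal pathway (0 of 7), which builds the membrane attack complex, passed the filter on low values across days.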

How the data were processed

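Reads of 5 Visium sections were aligned by the authors with Space Ranger to mm10 (GRCm38), and spots were processed in Seurat with sctransform. The deposited sham day 3 table holds raw UMI counts of 32285 genes. The other 4 deposited tables hold sctransform-corrected counts, a score adjusted to about the median depth of a section, for 14466 to 15300 genes. Because of the mixed units no count test was used. The deposited metadata give 11 label-transfer scores per spot (a fraction, summing to 1), raw UMI totals, and image positions in pixels (the other unit used), from which neighbours within 1.25 times the spot spacing were found.

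Each spot was scaled to CPM over the 13711 genes of all tables (99.8% to 99.9% of values). Section means, or means of a class with at least 20 spots, were compared on log2(CPM + 1) with limma 3.58.1 (R 4.3.3, mean-variance trend), with genes at 1 CPM or more in at least 2 columns, two-sided p-values and Benjamini-Hochberg adjustment over all genes at 0.05. The log scale understates differences of low genes. C4b, not listed in 1 table, was fitted over genes of any table, with unlisted genes at 0. The scripts were tested on simulated data. The day 7 comparison had 1 residual degree of freedom. All members are named, and other complement genes where called, some of which are not reported here. The members and gene lists were chosen with earlier results of these data known. Spots above 0 are not compared between the raw and the corrected tables.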

Additional observations from a re-analysis of the deposited data

How the results depend on the processing

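The members had 50 results and 606 alternatives, of which 597 kept the direction of the estimate, 19 lost a call and 18 gained one. The number of the 4 genes called across days, 0, was 0 to 3 with 1 section left out. At day 7 it went from 1 to 0 with genes of any table, median-of-ratios scaling, mitochondrial and haemoglobin genes left out, a pseudocount of 5, or spots apart left out. At day 3, 4 genes past 2-fold became 1 with a pseudocount of 5, and the day 3 minus day 7 count went from 0 to 1 with a filter at 10 CPM. Among CM1-dominant spots 1 became 0 under both other scalings and 1 to 3 with a section left out. Among FB-dominant spots 1 became 0 with genes of any table or a pseudocount of 5, and 0 to 3 with a section left out. At the edge 3 became 1 in CM1-dominant spots alone. Directions reversed for uncalled estimates only. With 1 section left out, C1s1 ran from -0.49 to 1.11 for day 3 minus day 7. In Macrophage- against CM1-dominant spots, C3 ran from -0.93 to 0.29 and C1s1 from -0.048 to 0.57, and C3 was at 0.21 with a pseudocount of 5. For the MI effect in FB- minus CM1-dominant spots, C1s1 ran from -1.12 to 0.075 and C3 from -0.68 to 1.57. The cause of these changes was not tested.

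Calls over all genes moved more. At day 7, 24 higher and 6 lower became 0 and 0 with median-of-ratios scaling or without mitochondrial and haemoglobin genes, 9 and 0 with genes of any table, and 62 and 25 with values summed over spots. For day 3 minus day 7, 47 and 8 became 0 and 0 under both other scalings. Across days, 1 higher and 0 lower became 319 and 47 without the sham day 7 section. In FB-dominant spots, 78 higher became 35 with genes of any table, 30 with a pseudocount of 5 and 0 to 539 with a section left out. In CM1-dominant spots 24 became 11 to 185. For FB minus CM1, 113 and 10 became 43 and 20 with median-of-ratios scaling. In Macrophage-dominant spots 9 higher became 0 to 147. Leaving out MI day 7 replicate 1 took the edge calls to 49 and 83.

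No paired analysis was possible because the labels give replicate numbers within 1 group only. Alternatives that used genes of any table, spots apart, EPI-dominant or interior spots, summed copies, and all those of the Macrophage comparison were added after seeing the data. Below 10 CPM, C1ra and C1s1 had no value in most comparisons. Precision is limited by 5 sections, by 1 table of another unit, and by the few molecules of C4b and C1ra. Sections of day 3 and sham day 7 are single, so heart and group cannot be told apart there. Intervals cover counting error only.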
